A study of Mus musculus with 4 samples.

Results

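The 10 genes described here, which supply methyl groups and place or remove DNA methylation, were followed in mouse T cell cultures labelled as lacking the mitochondrial folate enzyme Mthfd2 or as wild type. They were 10 of the 31748 gene symbols in the count tables, chosen by name: Mat2a, Ahcy and Mtr of the methionine cycle, Dnmt1, Dnmt3a, Dnmt3b and Uhrf1 of DNA methylation, and the oxidising enzymes Tet1, Tet2 and Tet3. The cultures were 2 libraries labelled TEaMthfd2 KO (KO) and 2 labelled TEaWT (WT). Both groups were labelled as CD4+ T cells of the TEa line, whose T cell receptor is a transgene, taken by positive magnetic selection from the spleens of 8-week-old mice. Both were kept for 3 days with mitomycin-treated antigen-presenting cells from F1 (BALB/c x C57BL/6) spleens, so each library can hold RNA of the presenting cells. The labels do not give the deleted part of Mthfd2 or the cells in which it was deleted. Separate animals or cultures per library are not stated, so a p-value reflects library-to-library spread that could be technical.

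The methionine cycle turns methionine into S-adenosylmethionine, the methyl donor of the cell, and returns the spent product to methionine with a methyl group from folate. DNA methyltransferases use this donor to make 5-methylcytosine: Dnmt1, guided by Uhrf1, copies the mark to the new strand after replication, and Dnmt3a and Dnmt3b set it anew. TET enzymes oxidise 5-methylcytosine, the first step of its removal, and need oxygen and 2-oxoglutarate. In T cells, Dnmt3a and Tet2 are known for their part in effector and memory cell fates.

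Total counts were 14191401 and 14419298 in the KO libraries, and 15955863 and 14686711 in the WT libraries. The first principal component, which held 69.0% of the variance, separated the KO from the WT libraries. The KO libraries lay at 43.8 and 40.9, WT replicate 1 at -65.1 and WT replicate 2 at -19.6. The WT libraries were further from each other on it than the KO libraries were. Mthfd2 itself had 3146 and 3510 counts in KO libraries and 4581 and 4149 in WT libraries (log2 fold change -0.24 ± 0.14 SE, adjusted p = 0.324 by edgeR), so whole-gene counts do not show the loss, and the directions rest on the labels. Cd8a had between 3.10 and 4.00 times the counts of Cd4 in each library, against the label of CD4+ cells. Of 7 T cell markers, 6 were in the tables, and their summed level was 1928 to 1985 CPM (counts relative to a library total that TMM factors had adjusted, on the same scale of 1000000 as TPM below) in KO libraries and 1316 to 1344 CPM in WT libraries, with 3 called higher and 0 lower in KO. The 8 B cell and plasma cell markers summed to 1044 to 1062 CPM in KO libraries and 1568 to 2317 CPM in WT libraries, with 5 called lower. The 12 myeloid and MHC class II markers, of which 10 were tested, summed to 887 to 1053 CPM in KO libraries and 1957 to 3256 CPM in WT libraries. Cd74 alone made up most of this sum, at 556 and 485 CPM in KO libraries and 1810 and 1100 CPM in WT libraries. The 4 called lower by edgeR were Cd74, H2-Aa, H2-Ab1 and Spi1. The other tested markers were not called by edgeR, with Itgax on the higher side (0.45) and Lyz2, Adgre1, Cd68, Cst3 and Flt3 on the lower. DESeq2 also called Lyz2 lower (adjusted p = 0.00709), at 4 and 4 counts in KO libraries against 77 and 23 in WT libraries. The macrophage receptor Csf1r and the myeloid integrin Itgam had at most 6 counts in a library. The 3 erythroid markers in the tables summed to 2.44 to 6.22 CPM in KO libraries and 28.9 to 118 CPM in WT libraries, with 1 called lower. Of 4 NK cell markers, 0 were called by edgeR or DESeq2 and 1 was lower at an unadjusted p under 0.05. Beside these edgeR marker counts, edgeR called 2.39% of all tested genes higher and 1.56% lower, and 12.7% were lower at an unadjusted p under 0.05. DESeq2 called 4 T cell markers higher. It called 7 B cell and plasma cell, 5 myeloid and MHC class II and 2 erythroid markers lower, beside 13.4% of all genes in either direction. The part of the marked cell types in the differences below was not tested. In such bulk samples fewer cells of a type and less RNA per cell cannot be told apart.

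All 10 genes were expressed above the low-count filter, and 0 were called higher and 0 lower in KO than in WT libraries. The threshold was an adjusted p under 0.05 in edgeR's quasi-likelihood test over all 12752 genes tested, which called 3.95% of them, 2.39% higher and 1.56% lower. An unadjusted p below 0.05 was reached by 3 members: Tet1 and Tet2 were higher and Mat2a lower in KO libraries, beside 25.5% of all genes tested (12.8% higher and 12.7% lower). DESeq2 called 2 of the 10, Tet1 higher and Mat2a lower, where it called 13.4% of all genes, and limma-voom called 0 members and 4.65% of all genes. Without the low-count filter edgeR called the same 2 members and 7.73% of all genes. Without WT replicate 2 it called 3 members (Tet1, Dnmt1 and Uhrf1) and 19.2% of all genes, without WT replicate 1 it called 0 members and 3.15%, and without either KO library it called 0 members and 0% of all genes. With the replicate number as a block it called 0 members and 6.97%. The KO and WT libraries did not overlap in CPM for 4 members (Tet1, Tet2 and Dnmt1 higher, Mat2a lower in KO), against 59.9% of all genes tested (29.8% above and 30.1% below in KO). The median log2 fold change of the members was 0.14, and that of all tested genes was -0.0026.

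**Figure D1:**
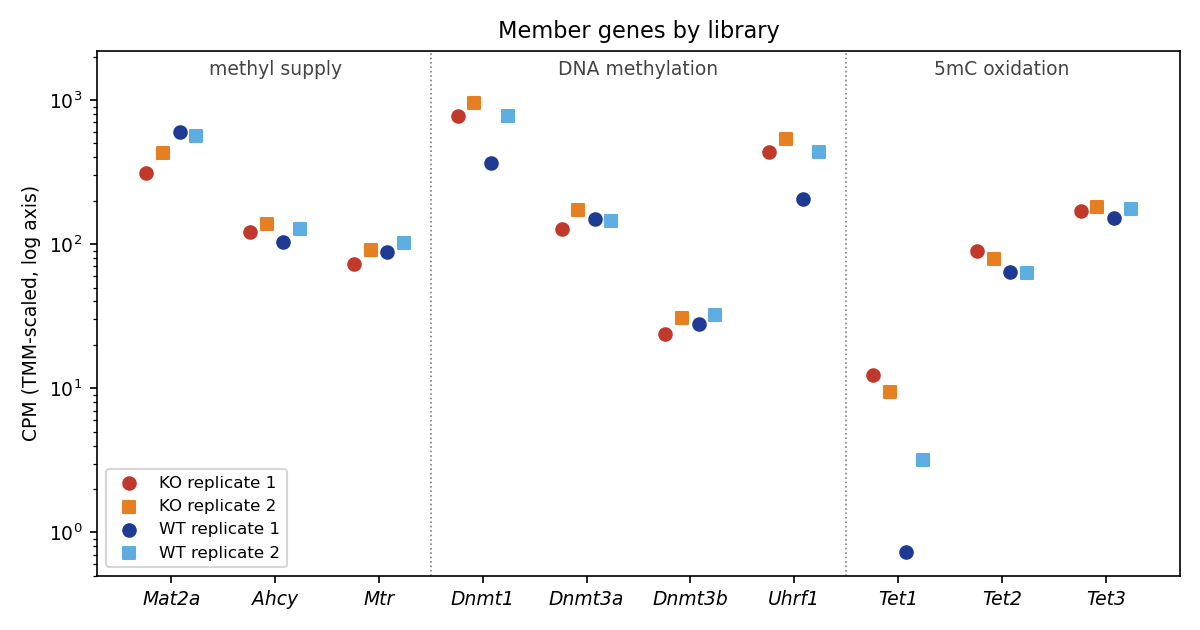
Level of the 10 genes in each library, in CPM scaled by TMM, on a log axis, grouped by role (5mC is 5-methylcytosine). Each point is 1 library. WT replicate 1 is the lowest library for Dnmt1, Uhrf1 and Tet1, and both WT libraries lie above both KO libraries for Mat2a.

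Levels can be compared between genes only per length, here in TPM, the counts divided by exon length and scaled to a total of 1000000 in every library. By mean TPM the KO libraries ran from Dnmt1 (349 ± 53.2) and Uhrf1 (338 ± 53.1) through Mat2a (245 ± 56.2) and Ahcy (138 ± 12.8) down to Tet1 (2.09 ± 0.382; SD, n = 2). In WT libraries Mat2a came first (398 ± 10.6), followed by Dnmt1 (240 ± 123) and Uhrf1 (234 ± 124), and Tet1 came last (0.393 ± 0.351; SD, n = 2). Tet3, Mtr and Dnmt3a lay between 22.5 and 37.4 TPM in every library, and Dnmt3b and Tet2 between 11.7 and 19.6 TPM. Over the 4 libraries the ranges of Mat2a, Dnmt1, Uhrf1 and Ahcy overlapped from 1 gene to the next, as did those of Mtr, Tet3 and Dnmt3a, and those of Dnmt3b and Tet2. Ahcy lay apart from Mtr, Dnmt3a from Dnmt3b, and Tet2 from Tet1.

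Of Mat2a, Ahcy and Mtr, Mat2a had the largest fold change in size. It encodes the catalytic subunit of the enzyme that makes S-adenosylmethionine outside the liver, and occupies bases 72432799 to 72439558 of chromosome 6, minus strand (GRCm38). Mat2a stood at 312 and 429 CPM in KO libraries, against 596 and 561 CPM in WT libraries. Both KO libraries were thus below both WT libraries, and the KO libraries differed more from each other than the WT libraries did. The log2 fold change was -0.64 ± 0.18 (SE), with a 95% interval of -1.09 to -0.20, and it did not pass (edgeR adjusted p = 0.0938). DESeq2 put Mat2a past the threshold (adjusted p = 0.0233), as did edgeR without the low-count filter (0.0328). Without WT replicate 1 and without WT replicate 2 the value was -0.60 and -0.68 (edgeR adjusted p = 0.181 and 0.0537). It moved more with the KO library left out, at -0.43 without KO replicate 1 and -0.89 without KO replicate 2 (edgeR adjusted p = 0.435 and 0.175). Particl, which overlaps Mat2a on the opposite strand, had 7 and 15 counts in KO libraries and 29 and 20 in WT libraries. Gm9523, a gene with 95.6% identity to Mat2a over 1164 bases, has no row in the tables, so how its reads were counted is not known.

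For Ahcy and Mtr no difference was detectable with 2 libraries each. Ahcy (chromosome 2, 155059310 to 155074497, minus strand) breaks down S-adenosylhomocysteine, the product that inhibits methyltransferases, and had 122 and 138 CPM in KO libraries against 104 and 128 CPM in WT libraries. The groups overlapped (log2 fold change 0.17, 95% interval -0.24 to 0.57, edgeR adjusted p = 0.578). Its reads are uncertain, because a GENCODE transcript of the separate gene Gm4737 matched Ahcy at 99.7% identity over 2083 bases and one of Gm9826 at 99.2% over 1299 bases, and neither symbol has a row in the tables. The tables also hold a row named Ahcyl, a symbol that the RefSeq table used here does not list, with 1.36 to 1.72 times the counts of Ahcy in each library. Which gene that row stands for, and whether it holds reads of Ahcy or of these copies, was not tested. Mtr (chromosome 13, 12182712 to 12258113, minus strand), the methionine synthase that takes the methyl group from folate, had 73.1 and 91.0 CPM in KO libraries against 88.8 and 102 CPM in WT libraries. KO replicate 2 lay above WT replicate 1, and the log2 fold change was -0.22 (95% interval -0.65 to 0.21, edgeR adjusted p = 0.483).

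**Figure D2:**
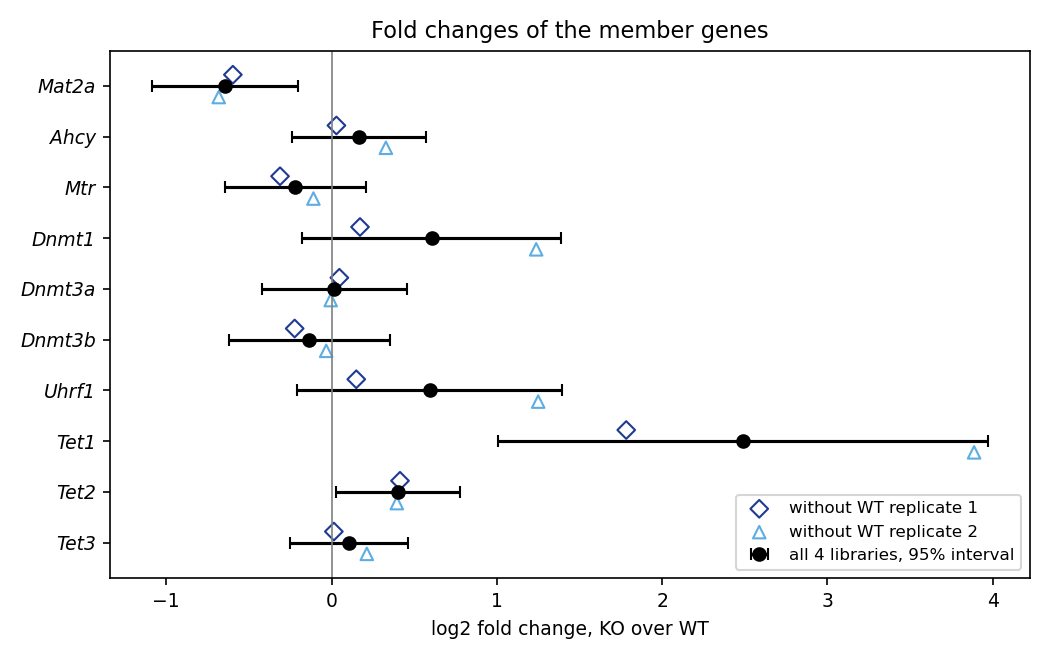
Log2 fold change of each gene, KO over WT. Black points and bars are the edgeR estimate and its 95% interval from all 4 libraries, and open symbols are the estimates without either WT library. Dnmt1, Uhrf1 and Tet1 shift with the WT library left out, while Mat2a and Tet2 stay close to their estimates.

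Dnmt1 and Uhrf1, the maintenance pair, kept nearly the same ratio to each other in every library. Dnmt1 (chromosome 9, 20907209 to 20959888, minus strand) had 777 and 957 CPM in KO libraries, against 369 and 771 CPM in WT libraries. Uhrf1 (chromosome 17, 56303321 to 56323486, plus strand) had 433 and 537 CPM in KO libraries, against 205 and 439 CPM in WT libraries. WT replicate 1 was the low library for both, and WT replicate 2 lay close to KO replicate 1. The ratio of Uhrf1 to Dnmt1 CPM was 0.558 and 0.561 in KO libraries and 0.555 and 0.569 in WT libraries. The log2 fold changes were 0.60 ± 0.33 for Dnmt1 (edgeR adjusted p = 0.294) and 0.59 ± 0.34 for Uhrf1 (adjusted p = 0.311). Without WT replicate 1 they were 0.17 and 0.15 (edgeR adjusted p = 0.681 and 0.724). Without WT replicate 2, where WT replicate 1 alone stands for WT, they were 1.24 and 1.25 and passed (edgeR adjusted p = 0.00374 and 0.00368). Gm5648, a gene with 98.3% identity to Uhrf1 over 1590 bases, had 1478 and 1820 counts in KO libraries and 768 and 1748 in WT libraries, so reads may be split between the copies.

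Genes of S phase, in which maintenance methylation takes place, varied along the same libraries. The 16 S phase genes summed to 4865 and 5975 CPM in KO libraries, against 3319 and 5250 CPM in WT libraries, and 15 of them were lowest in WT replicate 1. All 16 had a positive log2 fold change (median 0.40), 0 were called by edgeR or DESeq2 and 0 had an unadjusted edgeR p under 0.05. The smallest p-values were those of Slbp, the histone mRNA binding protein (0.47 ± 0.25, edgeR adjusted p = 0.285), and the replication factor Gins2 (0.54 ± 0.30, adjusted p = 0.302). The median of the S phase list was 0.08 without WT replicate 1, and without WT replicate 2 it was 0.85 and 10 of the 16 were called. Dnmt1 amounted to 15.97% and 16.02% of the summed S phase CPM in KO libraries, and to 11.1% and 14.7% in WT libraries. Uhrf1 amounted to 8.91% and 8.99% in KO libraries, and to 6.17% and 8.35% in WT libraries. The ratio of WT replicate 2 to WT replicate 1 CPM was 2.09 for Dnmt1 and 2.14 for Uhrf1. Across the S phase list it ran from 1.28 for Mcm2 to 4.56 for Rrm2, a subunit of ribonucleotide reductase. Rrm2, Tyms (4.19), Ccne2 (3.41), Cdc6 (2.45) and Cdc45 (2.12) were above Dnmt1, and the rest of the list was below it. These genes are named after their values were seen. The summed level is weighted to abundant genes such as the Mcm helicase subunits. The part of the cell cycle in the difference of Dnmt1 and Uhrf1 was not tested.

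**Figure D3:**
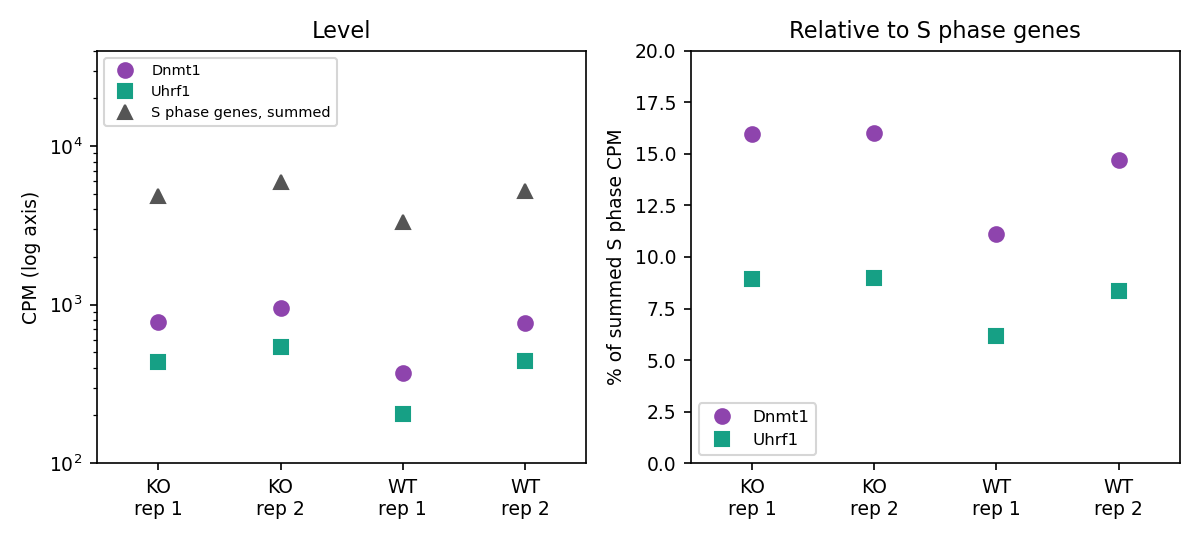
Dnmt1, Uhrf1 and the sum of 16 S phase genes in each library in CPM on a log axis (left), and Dnmt1 and Uhrf1 as a percentage of that sum (right). Each point is 1 library. All 3 are lowest in WT replicate 1, and the percentages are 11.1% and 6.17% there.

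The promoter windows of the members were searched for the E2F consensus of replication genes. The 10 members had 15 RefSeq windows (GRCm38.p6) of 250 bases before a transcription start. The consensus was spelled TTTCCCGC, TTTGGCGC, TTTCGCGC or TTTGCCGC, on both strands. It was found in 2 windows, of Uhrf1 and of Dnmt1, and in 1.86% of all 32851 windows of the same length. The Uhrf1 window is shown whole (chr17:56304063-56304312, plus strand) and the Dnmt1 match with its 30-base surroundings (chr9:20952824-20952853, minus strand), 5′ to 3′. The 8-base capitals mark the E2F match, and the 5-base capitals in Uhrf1 mark ACGTG read on the other strand, the core letters of hypoxia response elements.
Uhrf1: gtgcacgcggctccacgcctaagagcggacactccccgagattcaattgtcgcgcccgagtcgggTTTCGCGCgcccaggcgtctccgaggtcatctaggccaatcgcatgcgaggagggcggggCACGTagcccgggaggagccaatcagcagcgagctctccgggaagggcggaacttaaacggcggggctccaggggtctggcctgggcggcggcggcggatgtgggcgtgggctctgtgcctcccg
Dnmt1: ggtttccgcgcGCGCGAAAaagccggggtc
The match began 185 bases before the Uhrf1 start and 219 bases before the Dnmt1 start, and the Dnmt1 window overlaps an annotated exon of another start by 166 bases. ACGTG was found in windows of 3 members (Uhrf1, Dnmt3a and Tet2) and in 16.6% of all windows. CACGTG, the E-box letters bound by MYC, which contain ACGTG, was found in 1 member (Dnmt3a) and in 6.02% of all windows. The windows held between 2 and 51 CpG dinucleotides, with 51 in that of Tet2, against a median of 6 over all windows. The E2F-matched windows held 30 for Uhrf1 and 26 for Dnmt1, and the other windows of both genes had no match. Each E2F spelling contains a CpG, so the 1.86% over all windows is not matched for CpG content. A match describes the letters only and shows no binding.

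The de novo methyltransferases had KO and WT libraries that overlapped. Dnmt3a (chromosome 12, 3806007 to 3914443, plus strand) had 127 and 172 CPM in KO libraries against 151 and 145 CPM in WT libraries, and the KO libraries lay on either side of the WT libraries. Its log2 fold change was 0.02, with a 95% interval of -0.42 to 0.46 (edgeR adjusted p = 0.969), and 97.0% of the tested genes had a larger one in size. Its sign held in 8 of 11 alternative settings. The value was -0.0368 with scaling by library size only, -0.22 without KO replicate 2 and -0.0049 without WT replicate 2. Dnmt3b (chromosome 2, 153649450 to 153687730, plus strand) had 23.8 and 30.8 CPM in KO libraries against 28.0 and 32.0 CPM in WT libraries (-0.13, 95% interval -0.62 to 0.35, edgeR adjusted p = 0.720). Its transcript matched that of Dnmt3c, a germline methyltransferase with no row in the tables, at 93.3% identity over 1655 bases.

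The TET genes differed most at the lowest-expressed member. Tet1 (chromosome 10, 62804570 to 62908996, minus strand) had 175 and 132 counts in KO libraries, against 12 and 47 counts in WT libraries. This is 12.4 and 9.46 CPM in KO libraries, against 0.733 and 3.18 CPM in WT libraries. Both KO libraries were above both WT libraries, and the WT libraries differed by 4.33 times. The log2 fold change was 2.49 ± 0.62, with a 95% interval of 1.01 to 3.97, and only 1.62% of tested genes had a larger one in size, but it did not pass (edgeR adjusted p = 0.0708). Tet1 was past the threshold with DESeq2 (adjusted p = 0.00243) and with edgeR without the low-count filter (0.00847). It missed the threshold with limma-voom (adjusted p = 0.0508) and with the replicate number as a block in edgeR (adjusted p = 0.0512). The Tet1 value was 2.28 without KO replicate 1 and 2.67 without KO replicate 2. Without WT replicate 1 its value was 1.78 (edgeR adjusted p = 0.0592), and without WT replicate 2 it was 3.89 (adjusted p = 0.00111).

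Tet2 and Tet3 carried most TET transcripts. Tet2 (chromosome 3, 133463679 to 133545139, minus strand) had 89.7 and 79.0 CPM in KO libraries, against 64.4 and 63.5 CPM in WT libraries. The WT libraries were nearly equal and both KO libraries lay above them, but the log2 fold change of 0.40 ± 0.16 did not pass (95% interval 0.02 to 0.77, edgeR adjusted p = 0.175, DESeq2 adjusted p = 0.159). It was 0.41 without WT replicate 1. Tet3 (chromosome 6, 83362373 to 83459084, minus strand) had 169 and 182 CPM in KO libraries against 152 and 174 CPM in WT libraries, which overlap (0.11, 95% interval -0.25 to 0.46, edgeR adjusted p = 0.697).

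Shares within each family do not depend on how libraries are scaled, though they do on the lengths used. Tet3 made up 62.4% and 67.2% of TET TPM in KO libraries, against 70.2% and 72.4% in WT libraries. Tet2 made up 32.7% and 29.0% in KO libraries, against 29.5% and 26.1% in WT libraries. Tet1 made up 4.93% and 3.79% in KO libraries, against 0.366% and 1.43% in WT libraries. The Tet1 share was higher and the Tet3 share lower in both KO libraries than in either WT library, while the Tet2 shares overlapped. Dnmt1 made up 89.6% and 88.8% of the methyltransferase TPM in KO libraries, against 77.5% and 87.5% in WT libraries, with the low value again in WT replicate 1. An exact permutation test of 2 against 2 libraries cannot go below p = 0.333, so no test was made of these shares.

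**Figure D4:**
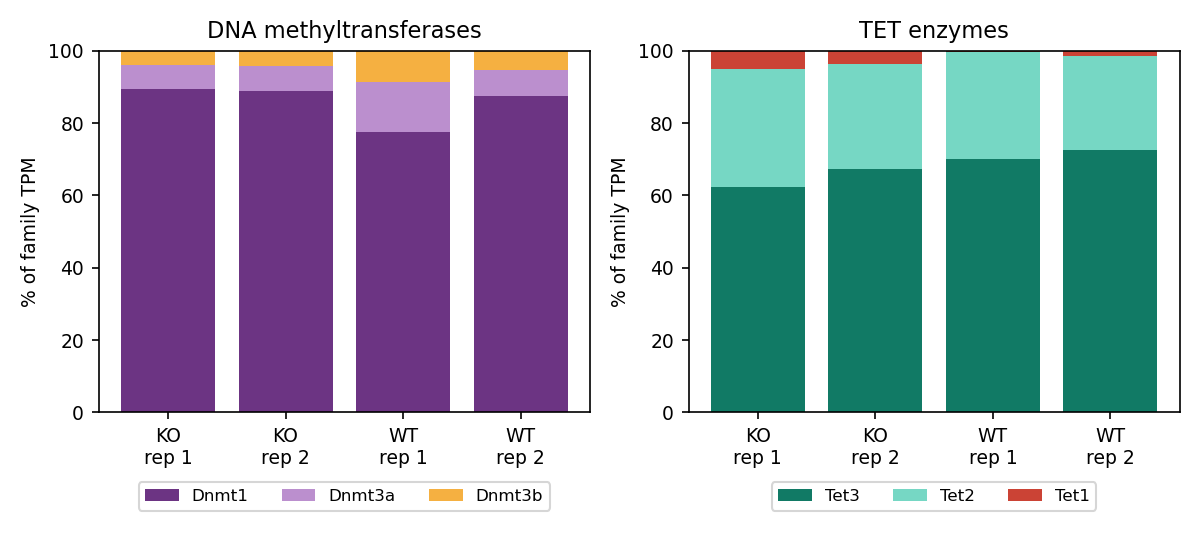
Share of each enzyme in the summed TPM of its family, in percent, for the DNA methyltransferases (left) and the TET enzymes (right). Each bar is 1 library. Tet1 takes 4.93% and 3.79% in KO libraries against 0.366% and 1.43% in WT libraries.

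In edgeR's test, 2 of the other genes of the pathway were called over 5 lists, and DESeq2 called more, as given for each list. Over all tested genes, edgeR called 2.39% higher and 1.56% lower, and DESeq2 called 13.4% in either direction. An unadjusted edgeR p below 0.05 was reached by 12.8% of all tested genes on the higher side and 12.7% on the lower. In other methyl supply genes, edgeR called 1 of 11 tested members higher and 0 lower, with 1 on the higher side and 3 on the lower at an unadjusted p below 0.05. The gene called was Slc43a2, a transporter of methionine and other large neutral amino acids, with 72.3 and 58.9 CPM in KO libraries against 23.3 and 28.1 CPM in WT libraries (1.35 ± 0.19, edgeR adjusted p = 0.0326). It was 1.23 without WT replicate 1, and 1.20 and 1.496 without KO replicate 1 and 2 (edgeR adjusted p = 0.297 and 0.147), where 0 of all genes were called. DESeq2 called Slc43a2 higher and Mtrr lower, the reductase that reactivates methionine synthase. Mtrr, named after its values were seen, had 39.5 and 51.7 CPM in KO libraries against 95.2 and 65.3 CPM in WT libraries. The other solute carrier genes of the list, also named after their values were seen, were lower in KO and not called by edgeR or DESeq2. They were Slc7a5 (-0.32 ± 0.14, edgeR adjusted p = 0.218), Slc3a2 (-0.54 ± 0.19, adjusted p = 0.138) and Slc25a26 (-0.81 ± 0.30, adjusted p = 0.157). Slc7a5 had 414 and 462 CPM in KO libraries against 567 and 526 CPM in WT libraries. Slc3a2 had 215 and 220 CPM in KO libraries against 369 and 264 CPM in WT libraries. In methionine salvage and polyamine synthesis, which uses S-adenosylmethionine for spermidine and spermine, 0 of 9 genes were called by edgeR, while DESeq2 called 3 lower (Srm, Odc1 and Mtap, which salvages methylthioadenosine and is named after its values were seen), the 3 that were lower at an unadjusted edgeR p under 0.05. Their median was -0.27. Srm, the spermidine synthase, had 183 and 307 CPM in KO libraries against 533 and 590 CPM in WT libraries (-1.20 ± 0.25, edgeR adjusted p = 0.0504), and Odc1, the first enzyme of polyamine synthesis, stood at -0.62 ± 0.15 (adjusted p = 0.0707).

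Partners and readers of DNA methylation gave 0 calls by edgeR among 15 tested genes, 3 higher at an unadjusted p below 0.05 and Uhrf2 higher by DESeq2 (median 0.06). For this and the next lists, the shares called over all tested genes were 3.95% by edgeR, 13.4% by DESeq2 and 4.65% by limma-voom. An unadjusted edgeR p below 0.05 was reached by 12.8% on the higher side and 12.7% on the lower. Uhrf2, the paralogue of Uhrf1, had 100 and 107 CPM in KO libraries against 72.3 and 71.7 CPM in WT libraries (0.52 ± 0.15, edgeR adjusted p = 0.0938), and Mbd2, a reader of methylated CpG, stood at 0.45 ± 0.15 (adjusted p = 0.130). Among 20 genes of demethylation and its repair, edgeR called 0 higher and 1 lower (median 0.07), while 7 on the higher side and 5 on the lower had an unadjusted p below 0.05. Gadd45b, a stress-induced gene linked to active demethylation, had 37.3 and 31.5 CPM in KO libraries against 146 and 75.8 CPM in WT libraries (-1.69 ± 0.31, edgeR adjusted p = 0.0430). It missed the threshold with upper quartile factors (adjusted p = 0.0527), and its value was -1.14 without WT replicate 1. Without KO replicate 1 and 2 it was -1.81 and -1.57 (edgeR adjusted p = 0.300 and 0.219), where 0 of all genes were called. DESeq2 called 2 genes of the list higher (Mbd4 and Idh1) and 3 lower (Gadd45b, Ung and Lig3), and limma-voom called 1 higher and 1 lower. Apart from Gadd45b these are named after their values were seen. Mbd4, a glycosylase of mismatches at methylated CpG, had 33.5 and 35.5 CPM in KO libraries against 12.6 and 18.9 CPM in WT libraries. Idh1, which makes the TET cofactor 2-oxoglutarate, had 18.03 and 7.03 CPM in KO libraries against 1.53 and 2.77 CPM in WT libraries. Other methyltransferases that use the same donor gave 0 calls by edgeR among 21 genes, though an unadjusted p below 0.05 was reached by 2 on the higher side and 4 on the lower (median -0.0038). DESeq2 called the histone methyltransferase Nsd2 higher, a gene named after its values were seen, with 367 and 422 CPM in KO libraries against 133 and 284 CPM in WT libraries. The arginine methyltransferases Carm1 (-0.54 ± 0.18, edgeR adjusted p = 0.128) and Prmt5 (-0.49 ± 0.17, adjusted p = 0.141) had the smallest p-values.

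**Figure D5:**
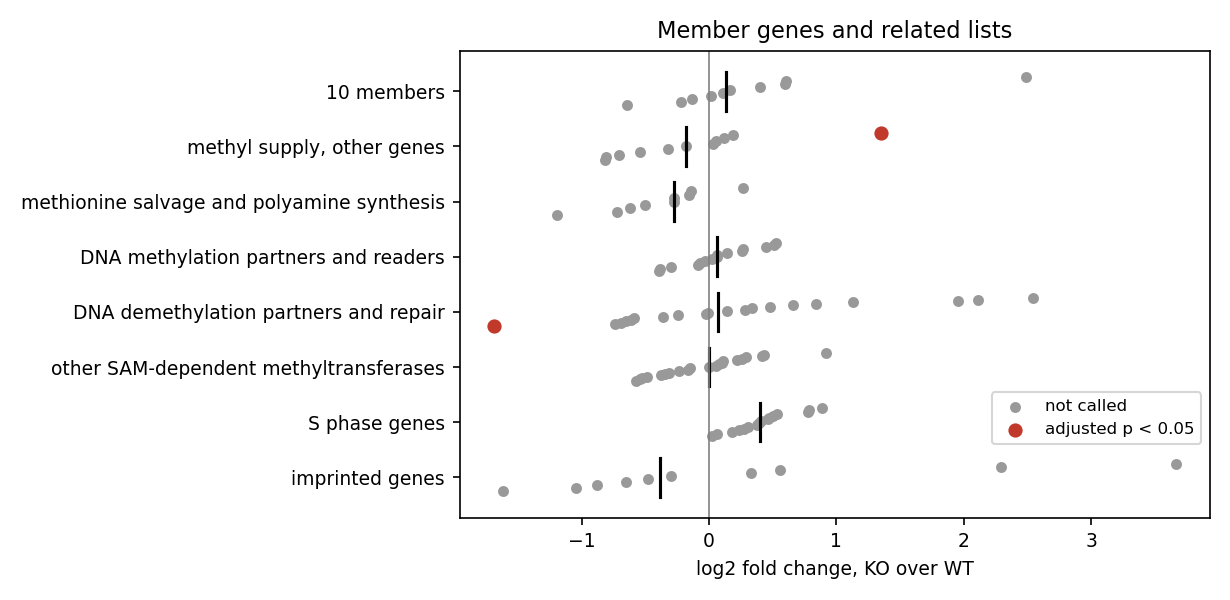
Log2 fold change, KO over WT, of the 10 genes and of each tested gene in related lists. Red points passed an adjusted p of 0.05 in edgeR (all 4 libraries) and black ticks are medians. Slc43a2 (1.35) and Gadd45b (-1.69) are the 2 red points.

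Germline genes whose silence depends on DNA methylation had few or no counts in either group. Of 13 germline genes silenced by promoter methylation, 0 passed the low-count filter, 9 had 0 counts in every library, and the highest count in a library was 18. A count of 0 allows up to 3 counts in a library, for counting error only. Of 15 imprinted genes, 10 were tested and 0 were called by edgeR, while 2 on the higher side and 3 on the lower had an unadjusted p below 0.05 and DESeq2 called Plagl1 and Impact lower. The list's median was -0.39 over 10 genes, -0.06 over the 11 tested without WT replicate 1, and -0.60 over 10 without WT replicate 2. It was -0.72 over 10 genes without KO replicate 1 and -0.28 over 11 without KO replicate 2. Of all tested genes, edgeR called 3.95% and DESeq2 13.4%, and 25.5% had an unadjusted edgeR p below 0.05. Plagl1, a zinc finger factor, had 2.62 and 2.80 CPM in KO libraries against 8.31 and 8.31 CPM in WT libraries (-1.62 ± 0.33, edgeR adjusted p = 0.05002), and Impact, a regulator of the translation kinase Gcn2, stood at -1.05 ± 0.22 (adjusted p = 0.0502). DNA methylation itself was not measured.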

How the data were processed

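Total RNA was depleted of ribosomal RNA, per the labels' protocols. The authors deposited whole-number read counts per gene symbol, not normalized. The submitters' processing notes list mm10, Subread 2.0.1, featureCounts, DESeq2 1.30.1 and R 4.0.4. How reads were aligned, which annotation was used, whether strand was used and how reads with several positions were treated is not stated there. Reads of antisense partners and near-identical copies could therefore not be told apart.

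Members and lists were chosen with earlier results of these data known. The main test was edgeR 4.0.16 (R 4.3.3): filterByExpr (minimum count 10, minimum total 15) kept 12752 genes, TMM factors were between 0.968 and 1.027, and KO was compared with WT by glmQLFTest with no covariate. P-values were adjusted over all kept genes by Benjamini-Hochberg. Fold changes are KO over WT, with SE and n = 2 libraries each. DESeq2 1.42.0 and limma-voom (limma 3.58.1) were alternatives. On simulated counts with changes put in, the main test called 36.7% of 2-fold and 82.8% of 4-fold changes, and 0.187% of unchanged genes. Most simulated 2-fold changes were thus missed. Levels in TPM were computed over GENCODE M21 exons, which gave lengths for 30746 symbols holding at least 95.9% of counts. Copies were sought among GENCODE transcripts with BLAST 2.17.0 (at least 90% identity over 300 bases). Replicate libraries differed by more than counting error (chi-square per degree of freedom 15.2 in KO and 37.4 in WT). Genes of each list were named if called, at most 4 by smallest p, and otherwise the 2 with the smallest p. All list entries but Trac and Hbb-bs were in the tables. Intervals for single genes are 95% intervals of the edgeR estimate.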

Additional observations from a re-analysis of the deposited data

How the results depend on the processing

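Among the 110 alternative values of the 10 members, 99 kept their sign and side of the threshold. Another 7 passed it (Tet1, Mat2a, Dnmt1 and Uhrf1 only), and 4 changed sign. Dnmt3a had a log2 fold change of -0.0368 with library size only, and from -0.22 to 0.23 with a library left out. Dnmt3b ran from -0.33 to 0.044 with a library left out. Members called were 2 with no filter on low counts, 2 with DESeq2, and 0 to 3 with a library left out. Genes called over all genes were 504, 305 of them higher and 199 lower, against 1419 with no filter (737 and 682), 1643 with DESeq2 (860 and 783) and 0 to 2559 with a library left out (0 without either KO library, where 1605 and 2161 had an unadjusted p under 0.05). Genes called in the lists, cell markers included, were 15, against 8 with upper quartile factors, 31 with no filter, 32 with DESeq2 and 0 to 53 with a library left out. With the replicate number as a block, 889 genes, 0 members and 23 list genes were called. An unadjusted edgeR p under 0.05 was then reached by 5 members and 3455 genes, against 3 members and 3250 genes in the main fit. Dnmt1 and Uhrf1 both stood at 0.69 with the block (edgeR adjusted p = 0.0787 and 0.0841). Whether the numbers pair libraries is not stated. Deviations of the first replicates of KO and WT correlated at 0.04 over genes, which does not settle it for single genes. With the longest transcript as length, 42 of 45 member pairs kept their order, and shares moved by more than 1 SD for Dnmt1 (87.2%), Dnmt3a (9.07%), Dnmt3b (3.72%), Tet1 (2.92%) and Tet2 (35.3%) in KO and for Tet2 (31.7%) and Tet3 (67.7%) in WT. With a single library in a group, that library is assumed to vary like the other group.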
